A study of Mus musculus with 24 samples.

Results

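The genes of the lysyl oxidase family (Lox, Loxl1, Loxl2, Loxl3 and Loxl4), the small leucine-rich proteoglycans Lum, Dcn and Bgn, and the fibre-forming glycoproteins Fbn1 and Fn1 were followed in mouse liver. Members were chosen by symbol, as every non-control probe carrying one of these 10 names in the scanner files. The rule gave 21 of 56605 probes, 18 of which were bright enough to be tested, and 10 of the 22088 genes tested. Each gene is described at its tested probe with the highest mean, and its other probes are given as a check. Fbn1 and Fn1 belong to the set by its list of names and are not proteoglycans.

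Female mice on a mixed sv129/C57 background, 8 weeks old per the labels, provided liver RNA for 24 one-colour Agilent arrays, with an array for each mouse. Wild-type (WT) mice were compared with knockout (KO) mice lacking LXRα and LXRβ, receptors for oxysterols encoded by Nr1h3 and Nr1h2. For 1 month, mice of each genotype were given water or fumonisin B1 (FB1), a mycotoxin that blocks ceramide synthases, at 10 mg/kg body weight daily. The 4 groups have 6 mice each and are called control or FB1 after their genotype. The labels do not say which part of either gene was deleted or whether the KO controls were littermates. Nr1h3 lay between 4.71 and 5.06 on every WT array and between -5.13 and -2.56 on every KO array, and Nr1h2 between 4.02 and 4.34 against 0.31 and 0.80. The arrays lay on 3 slides with 2 arrays of each group per slide, and 58.7% to 64.5% of the spots of an array were well above background. All levels below are log2 units relative to the array's own 75th percentile, which stands at 0. All changes are log2 differences of group means ± the SE of the limma fit, with 6 arrays a group unless stated. That SE rests on 1 spread per gene, shared by the 4 groups and moderated by limma over all genes. Levels of different probes are not comparable, because each probe binds with its own strength.

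Lysyl oxidases are secreted copper enzymes that oxidise lysine residues in collagen and elastin, which then form the covalent cross-links that make fibres stiff and hard to degrade. Lumican, decorin and biglycan bind collagen fibrils and govern their thickness and spacing, and decorin and biglycan also bind growth factors of the TGF-β family. Fibrillin-1 builds the microfibrils on which elastin is laid down, and fibronectin, which hepatocytes release into plasma and which mesenchymal cells assemble into fibrils, is a scaffold for new matrix. In liver, scar-forming stellate cells and portal fibroblasts are the best known sources of most of these proteins.

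Probe sequences of 60 bases are shown for 6 members as examples of what the arrays measured, printed 5′ to 3′ as deposited. For Loxl1, Loxl3 and Bgn the probe is the one used for the levels below, and for Loxl2, Loxl4 and Fn1 it is one of the others, given as a check. Capitals mark the longest run that each shares with the probe of another member printed here, which is 7 bases at most. Probes were compared only with each other, so this says nothing of a match to a relative's transcript.
Loxl1: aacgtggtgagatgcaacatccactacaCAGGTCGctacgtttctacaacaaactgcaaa
Loxl2: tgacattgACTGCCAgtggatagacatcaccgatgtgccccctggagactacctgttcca
Loxl3: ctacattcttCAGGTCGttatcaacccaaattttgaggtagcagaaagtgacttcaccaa
Loxl4: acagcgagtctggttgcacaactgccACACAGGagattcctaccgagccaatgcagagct
Bgn: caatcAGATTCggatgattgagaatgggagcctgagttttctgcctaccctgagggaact
Fn1: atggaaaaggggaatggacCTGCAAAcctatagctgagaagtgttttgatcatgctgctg
In the files' build, mm9, the Loxl1 probe lies at chr9:58138570-58138629 on the minus strand and the Bgn probe at chrX:70738554-70738613 on the plus strand. The Loxl2 sequence is that of its probe 2, at chr14:70090017-70090076 (plus). The Loxl3 probe covers chr6:83000426-83000598 (plus), the Loxl4 sequence, that of its probe 3, chr19:42669867-42672019 (minus), and the Fn1 sequence, that of its probe 4, chr1:71694694-71695800 (minus). Each of those last 3 spans more genome than its 60 bases, that is 173, 2153 and 1107 bases, as a probe across an exon junction does. The longest shared run was 7 bases between the Loxl1 and Loxl3 probes and 7 between those of Loxl2 and Loxl4. The capitals of the Loxl4 and Fn1 sequences mark runs of 7 bases shared with the Loxl1 probe.

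In KO liver FB1 raised 3 of the 5 lysyl oxidase genes, where 16.5% of all genes were called higher and 24.6% lower. In WT liver it raised 1 of the 5, where 2.06% of all genes were called higher and 0.824% lower. Lox, the founding member of the family, rose 5.52-fold in KO mice, Loxl1 4.63-fold and Loxl2 2.47-fold. The order of Lox and Loxl1 is not settled, since after normexp correction Lox changed by 1.02 and Loxl1 by 1.51 on the log2 scale. Loxl2 was the member of the family called in WT liver, where it rose 1.65-fold. Loxl3 and Loxl4 did not pass the test for FB1 in either genotype. Since whole liver was measured, here and below, fewer cells of a type and less RNA per cell cannot be told apart, nor can more of either.

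Lox stood apart in KO FB1. Its lowest, median and highest levels were -5.42, -5.27 and -3.99 in WT control, -5.98, -5.11 and -3.90 in WT FB1 and -5.53, -5.03 and -4.26 in KO control. In KO FB1 they were -2.90, -2.50 and -2.12. All 6 KO FB1 arrays were higher than all 18 others, among which the groups overlapped widely. Lox was well above background on 5 of 6 arrays in each WT group and on all arrays of both KO groups. Lox thus passed the filter on dim probes only through the KO groups. FB1 raised it by 2.46 ± 0.30 in KO liver (limma adjusted p = 1.93e-06), while the WT difference was 0.06 ± 0.30 (adjusted p = 0.939). The FB1 effects of the genotypes differed by 2.40 ± 0.43 (adjusted p = 0.00188). Within slides 1, 2 and 3 the KO change was 2.34, 2.41 and 2.64, and it stayed called with slide as a block. The size depends on how background is treated, since the KO change was 1.02 after normexp correction and 1.35 in the authors' deposited values. The difference of the effects was 0.94 and 1.33 there, and all of these were called. A further Lox probe was well above background on 3 KO FB1 arrays and on 0 of the other groups, and was not tested. Both Lox probes lie on chromosome 18.

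Loxl1, needed for elastic fibre maintenance, rose with FB1 in KO liver, and by more than the difference seen in WT liver. The lowest, median and highest levels were -3.77, -3.00 and -2.61 in WT control and -2.55, -2.46 and -1.67 in WT FB1. They were -3.85, -3.28 and -2.39 in KO control and -1.70, -0.96 and -0.56 in KO FB1. FB1 and control arrays did not overlap in either genotype. The KO change of 2.21 ± 0.23 was called (adjusted p = 3.26e-07), whereas the WT difference of 0.73 ± 0.23 missed the threshold (adjusted p = 0.0901). The effects differed by 1.48 ± 0.33 (adjusted p = 0.00742). That difference was 2.10, 0.57 and 1.75 within slides 1, 2 and 3, so slide 2 gave the smallest value. The lone WT FB1 array at -1.67, replicate 1, overlapped the KO FB1 range.

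Loxl2, which acts on collagen IV and fibrillar collagens, changed in both genotypes. It lay between -1.52 and -0.88 in WT control, with a median of -0.99, and between -0.67 and 0.30 in WT FB1, with a median of -0.47. In KO control the levels ran from -1.31 to -0.43 around -0.95, and in KO FB1 from 0.06 to 0.58 around 0.40. The FB1 arrays of each genotype lay above all its control arrays. The rise was 0.72 ± 0.17 in WT (adjusted p = 0.0156) and 1.31 ± 0.17 in KO liver (adjusted p = 2.8e-06). The difference of the effects, 0.58 ± 0.23, did not pass the test (adjusted p = 0.119, 95% interval 0.10 to 1.07), though it did in the authors' deposited values (0.66, adjusted p = 0.0488) and without WT FB1 replicate 1 (0.72, adjusted p = 0.03). The WT call was lost when the WT arrays were fitted alone (adjusted p = 0.0534). The WT change was 0.48, 1.20 and 0.47 within slides 1, 2 and 3. At the second Loxl2 probe, printed above, FB1 raised the level by 0.71 ± 0.10 in KO liver (adjusted p = 1.35e-05). There the WT difference of 0.31 ± 0.10 was not called (adjusted p = 0.113), so both probes carry the KO change and one the WT call.

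Loxl3 was called between the genotypes with FB1 and for FB1 in neither. Its lowest, median and highest levels were -6.01, -5.39 and -4.85 in WT control, -6.08, -5.03 and -4.65 in WT FB1, -5.53, -4.63 and -4.37 in KO control and -4.57, -4.44 and -4.08 in KO FB1. Every KO FB1 array exceeded every WT FB1 array, and 5 of 6 KO control arrays exceeded every WT control array. It was well above background on 3 and 4 of 6 arrays in the WT groups and on all KO arrays. Loxl3 thus passed the filter on dim probes only through the KO groups, where it is higher. The genotype difference was 0.91 ± 0.24 with FB1 (adjusted p = 0.00469), or 0.74 with the dim arrays raised to the lowest signal counted as above background. Without FB1 it was 0.67 ± 0.24 (adjusted p = 0.0598), and it was called without KO control replicate 2 (0.83, adjusted p = 0.0165), without WT control replicate 6 (0.78, adjusted p = 0.034) and without WT FB1 replicate 1, 2 or 6. Normexp correction cut the difference with FB1 to 0.14 (adjusted p = 0.147), and within slides 1, 2 and 3 it was 0.77, 1.75 and 0.23.

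Loxl4 varied widely between mice of the same group. Its lowest, median and highest levels were -1.49, -0.21 and 1.03 in WT control and -1.03, 0.30 and 0.55 in WT FB1. They were -1.45, -0.68 and 0.49 in KO control and -1.89, -0.22 and 0.43 in KO FB1, and all groups overlapped. The SD within a group ran from 0.58 to 1.06. No comparison was called, and the 95% interval of the FB1 effect was -0.53 to 1.44 in WT and -1.09 to 0.88 in KO liver. The spread was shared by 3 probes: over 24 arrays their deviations from the group means correlated at 0.95 to 0.98. The probes read the same RNA of the same mice, so this describes the mice and not independent data.

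**Figure D1:**
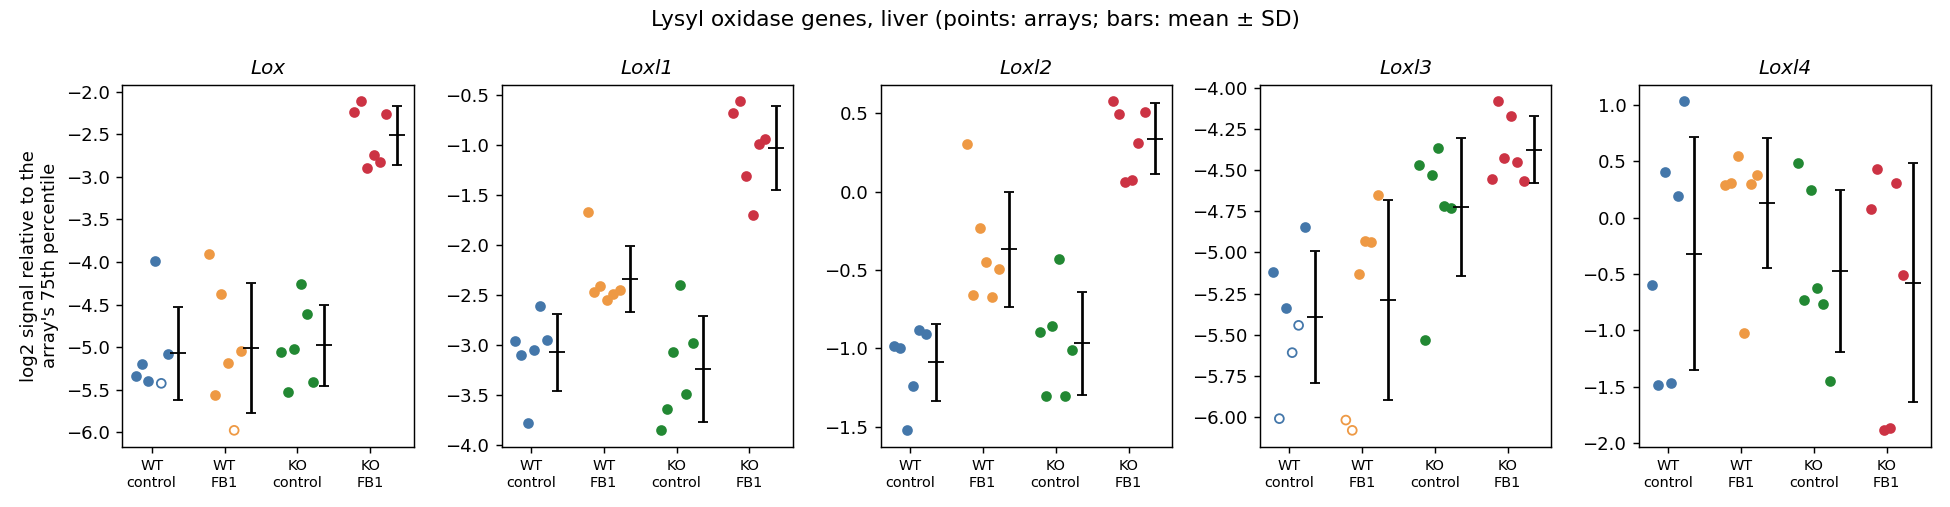
Levels of the lysyl oxidase genes as log2 signal above or below the 75th percentile of the array, by group, with a point for each array and mean ± SD beside it. Open points are arrays on which the probe was not well above background, and each panel has its own scale. The KO FB1 arrays of Lox lie between -2.90 and -2.12, above all others, while Loxl4 overlaps in every group.

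Of the proteoglycans, lumican and decorin rose with FB1 in KO liver and biglycan was not called. Lum, whose protein binds and spaces collagen fibrils, rose 3.01-fold in KO and 1.76-fold in WT liver. Dcn, the proteoglycan that binds both collagen and TGF-β, rose 1.33-fold in KO liver. Bgn, its closest relative, was 1.19-fold higher and did not pass the test there.

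Lum was the member with a call in all 5 comparisons. Its lowest, median and highest levels were 0.17, 0.36 and 0.72 in WT control, 0.91, 1.07 and 1.83 in WT FB1, 0.64, 0.80 and 1.01 in KO control and 2.01, 2.44 and 2.77 in KO FB1. The groups stood in the order WT control, KO control, WT FB1, KO FB1, with the KO FB1 arrays above all others and overlap between the first pair and between KO control and WT FB1. FB1 raised Lum by 0.81 ± 0.15 in WT (adjusted p = 0.00211) and by 1.59 ± 0.15 in KO liver (adjusted p = 5.59e-08). The effects differed by 0.78 ± 0.21 (adjusted p = 0.0195), and within slides 1, 2 and 3 by 1.13, 0.07 and 1.14. The genotype difference without FB1, 0.44 ± 0.15, was close to the threshold (adjusted p = 0.044). It was lost with slide as a block (adjusted p = 0.0539), in the authors' deposited values (0.42, adjusted p = 0.0631) and when any of 10 arrays was left out (WT control replicates 1, 3, 4, 5 and 6, KO control replicates 1, 2, 3 and 4, WT FB1 replicate 3), with adjusted p up to 0.0951.

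Dcn varied little within groups. Its levels ran from 5.69 to 6.19 in WT control, 5.98 to 6.35 in WT FB1, 5.95 to 6.38 in KO control and 6.51 to 6.71 in KO FB1, with medians of 5.92, 6.10, 6.14 and 6.56. KO FB1 lay above every other array, and the other groups overlapped. FB1 raised Dcn by 0.42 ± 0.08 in KO liver (adjusted p = 0.000356), and the WT difference of 0.17 ± 0.08 was not called (adjusted p = 0.284). The effects differed by 0.25 ± 0.12 (adjusted p = 0.187). In the authors' deposited values the KO change was 0.73, and the difference of the effects was called there (0.49, adjusted p = 0.0235).

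Bgn was called in the genotype comparison with FB1 alone. From lowest over median to highest its levels were -1.12, -0.95 and -0.86 in WT control, -1.30, -0.92 and -0.63 in WT FB1, -1.21, -0.87 and -0.33 in KO control and -0.82, -0.52 and -0.40 in KO FB1. The groups overlapped, and a KO control array, replicate 4, was the highest of all 24. The FB1 difference in KO liver was 0.25 ± 0.12 (adjusted p = 0.107), and it was called without that array (0.35, adjusted p = 0.0152) and with the probes averaged (0.22, adjusted p = 0.0482). With FB1, KO exceeded WT by 0.36 ± 0.12 (adjusted p = 0.0295). This call was lost on leaving out any of 5 arrays (WT FB1 replicates 2 and 5, KO FB1 replicates 2, 5 and 6), with adjusted p up to 0.0827, and with no filter on dim probes (adjusted p = 0.0551). Within slides 1, 2 and 3 it was 0.56, 0.36 and 0.15. A second tested probe gave 0.28 ± 0.12 (adjusted p = 0.0946), and its deviations over 24 arrays correlated with those of the first at -0.06.

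Fbn1 rose with FB1 in KO liver, and Fn1 was called for FB1 in neither genotype. The lowest, median and highest Fbn1 levels were -1.99, -1.70 and -1.43 in WT control, -2.14, -1.65 and -1.23 in WT FB1, -1.91, -1.74 and -1.29 in KO control and -1.003, -0.77 and -0.38 in KO FB1. All KO FB1 arrays were above all others, which overlapped. FB1 raised Fbn1 1.92-fold in KO liver (0.94 ± 0.14, adjusted p = 2.53e-05). The WT difference was 0.13 ± 0.14 (adjusted p = 0.671), and the effects differed by 0.81 ± 0.20 (adjusted p = 0.0155). Within slides 1, 2 and 3 the KO change was 1.04, 0.70 and 1.09. A second Fbn1 probe gave a KO rise of 0.83 ± 0.17 (adjusted p = 0.000478) and a difference of the effects of 0.94 ± 0.24 (adjusted p = 0.0176).

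Fn1 overlapped in all groups. It had lowest, median and highest levels of 7.43, 7.69 and 7.83 in WT control, 7.60, 7.72 and 8.02 in WT FB1, 7.42, 7.60 and 7.83 in KO control and 7.17, 7.49 and 7.72 in KO FB1. WT FB1 has 5 arrays here, since the spot of replicate 5 was marked as an outlier and dropped. The FB1 difference was 0.11 ± 0.11 in WT (adjusted p = 0.62) and -0.16 ± 0.10 in KO liver (adjusted p = 0.213). With FB1, Fn1 was lower in KO than in WT (-0.30 ± 0.11, adjusted p = 0.0338). That call was lost with the outlier spot kept (-0.11, adjusted p = 0.655), with quantile normalisation (-0.07) and when any of 5 single arrays was left out (KO FB1 replicates 1, 2 and 6, WT FB1 replicates 1 and 2), with adjusted p up to 0.109. The call was also lost with the 2 groups fitted alone (adjusted p = 0.0748) and with no filter on dim probes (adjusted p = 0.0644). With the probes of the gene averaged it was lost too (-0.16, adjusted p = 0.659), though WT FB1 replicate 5 lacks the brightest probe in that average. The sign turned in the authors' deposited values (0.12, adjusted p = 0.548).

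Fibronectin was read by 3 more probes. Another, at chr1:71637422-71639659 (mm9, minus strand), is printed because it is also split over a longer stretch, 2238 bases, with a shared run of 6 bases in capitals.
Fn1 probe 2: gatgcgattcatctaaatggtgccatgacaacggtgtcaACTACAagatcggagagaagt
It gave a genotype difference with FB1 of -0.35 ± 0.12 (adjusted p = 0.0294). Probe 3, which the files assign to a single Ensembl transcript, gave -0.81 ± 0.25 (adjusted p = 0.0182). Its lowest, median and highest levels were 0.67, 1.68 and 2.50 in WT FB1 and 0.60, 1.004 and 1.14 in KO FB1. Probe 4, printed further above, was not called (-0.16 ± 0.13, adjusted p = 0.369). Probe 1 followed probes 2 and 4 over arrays (r = 0.82 and 0.69 of deviations from group means) and probe 3 hardly (r = 0.07, 23 arrays). No Fn1 probe was called for FB1 in either genotype.

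**Figure D2:**
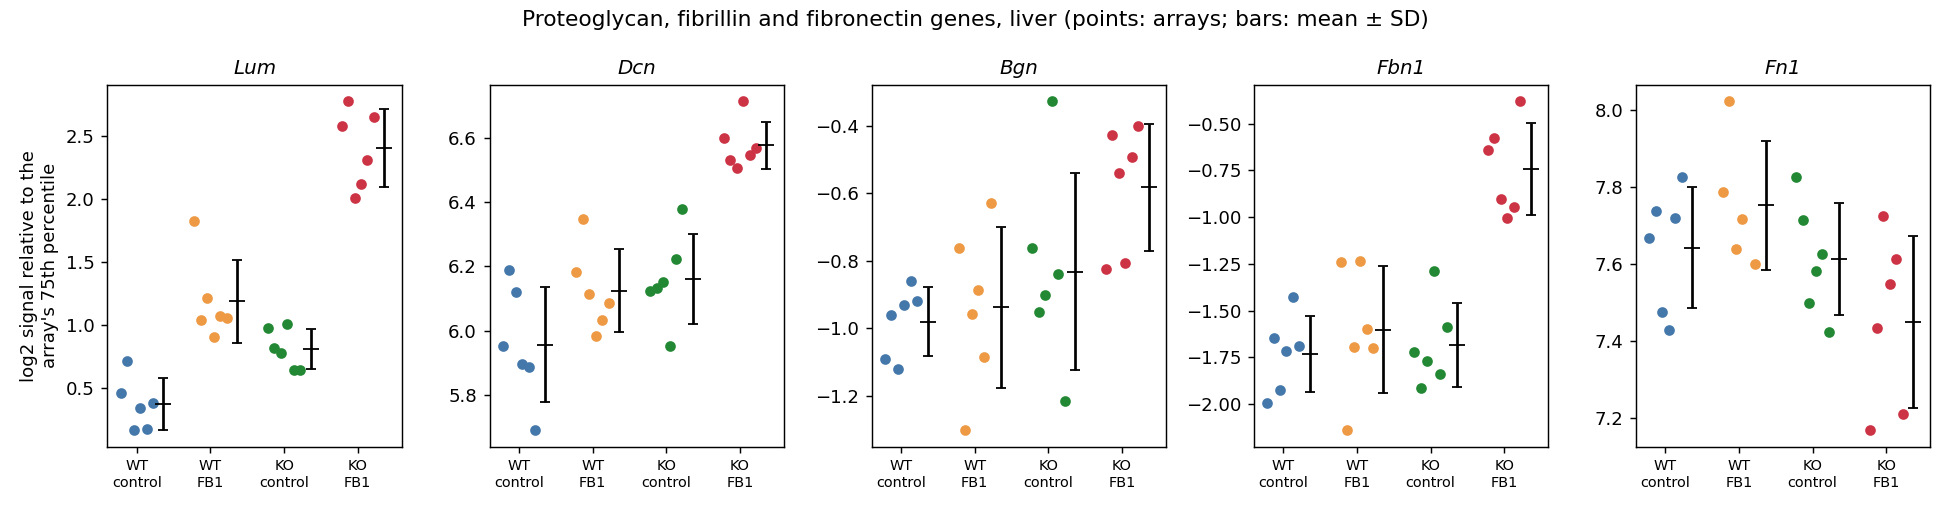
Levels of Lum, Dcn, Bgn, Fbn1 and Fn1 as log2 signal above or below the 75th percentile of the array, by group, with a point for each array and mean ± SD beside it, each panel on its own scale. KO FB1 stands above all other arrays for Lum, Dcn and Fbn1 and overlaps them for Bgn and Fn1.

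**Figure D3:**
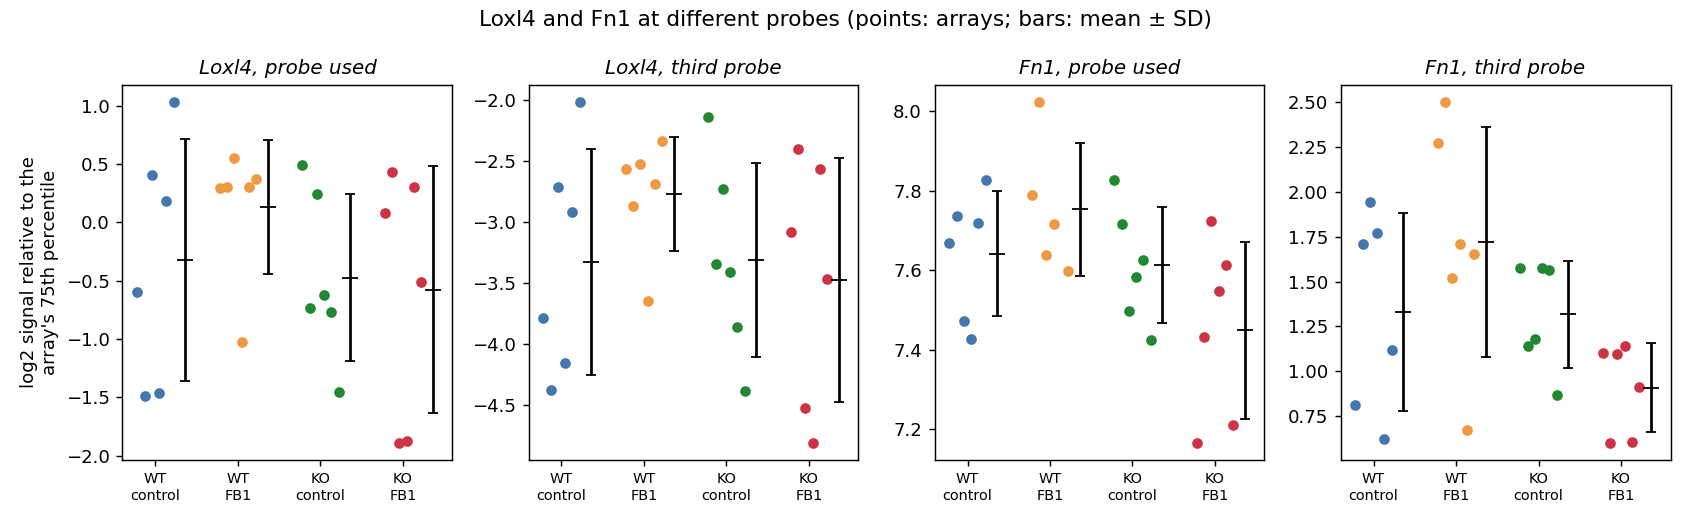
Loxl4 and Fn1, each at the probe used and at its probe 3, by group, as log2 signal above or below the 75th percentile of the array, with a point for each array and mean ± SD beside it. The Loxl4 probes show the same scatter of mice (r = 0.98 of deviations from group means), the Fn1 probes do not (r = 0.07), and levels of different panels are not comparable.

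The counts stood against different backgrounds in each comparison. For FB1 in WT liver 2 of 10 members were called, both higher (Loxl2 and Lum), while 2.06% of all genes were called higher, 0.824% lower and 2.89% in either direction. Those 638 calls over all genes fell to 386 without WT FB1 replicate 1. Groups did not overlap for 3 members (Loxl1, Loxl2 and Lum), all higher, against 1.29% of genes higher and 1.03% lower. For FB1 in KO liver 6 of 10 were called, all higher (Lox, Loxl1, Loxl2, Lum, Dcn and Fbn1), where 16.5% of genes were called higher, 24.6% lower and 41.2% either way. The same 6 members did not overlap between the groups, all higher, against 8.89% of genes higher and 9.48% lower. The median change of the members was 0.15 in WT and 0.68 in KO liver, beside -0.03 and -0.08 over all genes.

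Without FB1 the genotypes differed in 1 of 10 members, Lum, where 7.21% of genes were called higher, 8.02% lower and 15.2% either way. For 0 members did the groups separate, against 3.61% of genes higher and 4.32% lower. Of the other 9 members, 2 had an unadjusted p under 0.05, Loxl3 and Dcn (0.20 ± 0.08, adjusted p = 0.104). Dcn was called with quantile normalisation (0.30, adjusted p = 0.0274) and without WT control replicate 2 (0.25, adjusted p = 0.0417). With FB1 8 members were called higher in KO than in WT and 1 lower, beside 14.5% and 18.3% of all genes, 32.8% in all. The exception among the 10 was Loxl4 (-0.71 ± 0.47, adjusted p = 0.267). Lox was 5.63-fold higher (2.49 ± 0.30), though by 0.97 after normexp correction and 1.39 in the authors' deposited values. Loxl1 was higher 2.48-fold (1.31 ± 0.23), Lum 2.32-fold (1.22 ± 0.15) and Fbn1 1.82-fold (0.86 ± 0.14). Loxl2 was 1.63-fold (0.71 ± 0.17) and Dcn 1.37-fold higher (0.45 ± 0.08). Groups did not overlap for 5 members (Lox, Loxl3, Lum, Dcn and Fbn1), all higher, against 7.06% of genes higher and 8.13% lower. Lox and Loxl3 count among the called and the non-overlapping members, though both passed the filter on dim probes only through the KO groups. Each genotype comparison shares its arrays with an FB1 comparison, so these values are no separate evidence.

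The test of whether FB1 acted differently in the genotypes called 4 members, Lox, Loxl1, Fbn1 and Lum, all with the larger effect in KO liver. Over all genes 4.46% were called in that direction, 4.84% in the other and 9.3% in either. Of all genes called, 47.9% lay in that direction, and 58.2% with the authors' deposited values. Those values called 6 of the 9 members they hold, with Loxl2 and Dcn added, beside 1916 of 20805 genes. In the main fit the 6 members not called had adjusted p from 0.119 to 0.708, which does not show that they respond alike. The 95% interval of the difference was 0.01 to 0.49 for Dcn, -0.15 to 0.57 for Bgn, -0.45 to 0.94 for Loxl3, -1.95 to 0.83 for Loxl4 and -0.58 to 0.03 for Fn1.

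**Figure D4:**
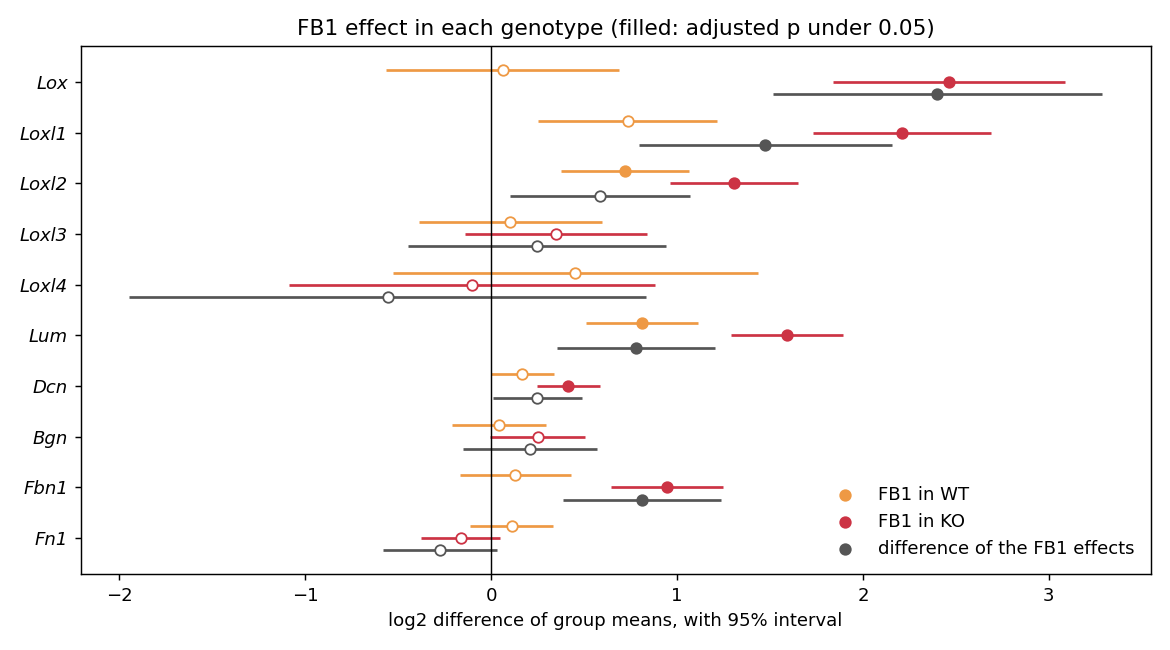
Log2 differences of group means with 95% intervals for FB1 in WT, FB1 in KO and the difference of these effects, for the 10 members, with filled points where the adjusted p was under 0.05. Lox and Loxl1 lie farthest to the right in KO liver, at 2.46 and 2.21, and Loxl4 has the widest intervals.

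Over the neighbouring pathways, 87 of 99 listed genes could be tested. FB1 in KO liver raised 41 and lowered 9 of them (median 0.33), and FB1 in WT liver raised 7 and lowered 0 (median 0.10). The effects differed for 9, all larger in KO liver. Each list's counts for FB1 in KO stand against 16.5% of all genes called higher and 24.6% lower, here and for the cell type markers. Those for FB1 in WT stand against 2.06% higher and 0.824% lower, and those for the difference of the effects against 4.46% and 4.84%.

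Among the genes that activate lysyl oxidases or are their fibrillar collagen substrates, FB1 in KO liver raised 8 of 11 and lowered 1 (median 0.86), and in WT liver it raised 3 and lowered 0 (median 0.32). Col1a1, Col1a2 and Col3a1 encode the chains of the main scar collagens. Col1a1 rose by 2.75 ± 0.32 in KO (adjusted p = 9.5e-07) and by 1.53 ± 0.32 in WT liver (adjusted p = 0.00698). Its levels ran from -2.47 to -0.79 in WT control, -0.52 to 1.16 in WT FB1, -1.68 to -0.08 in KO control and 0.83 to 2.27 in KO FB1, so the FB1 and control arrays of each genotype did not overlap. Col1a2 rose by 1.68 ± 0.17 in KO and 0.76 ± 0.17 in WT liver (adjusted p = 0.0143), and Col3a1 by 1.78 ± 0.23 and 1.08 ± 0.23 (adjusted p = 0.00908). The FB1 effects differed by 0.92 ± 0.24 for Col1a2 (adjusted p = 0.021). The differences of 1.22 ± 0.45 for Col1a1 (adjusted p = 0.0884) and 0.69 ± 0.33 for Col3a1 (adjusted p = 0.193) were not called. The called member that was lower is Bmp1, the protease that trims both procollagen and the lysyl oxidase propeptide (-0.45 ± 0.09, adjusted p = 0.000369), which is named here after its value was seen.

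Of the enzymes and chaperones of collagen modification and secretion, FB1 in KO liver raised 9 of 16 and lowered 1 (median 0.37), and in WT liver it raised 3 and lowered 0. Fkbp10, a chaperone that works with lysyl hydroxylases, rose by 1.53 ± 0.17 (adjusted p = 4.41e-07). Plod2, the hydroxylase that marks the telopeptide lysines for stable cross-links, rose by 1.66 ± 0.21 (adjusted p = 2.24e-06), and its FB1 effects differed by 1.03 ± 0.29 (adjusted p = 0.0277). Plod2 was well above background on 3 of 6 arrays in each control group and passed the filter through the FB1 groups, where it is higher. With the dim arrays raised to the lowest signal counted as above background, the KO change was 1.61. Adamts2, which removes the procollagen N-propeptide, rose by 1.04 ± 0.15 in KO and 0.64 ± 0.15 in WT liver (adjusted p = 0.017).

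Elastic fibre and microfibril genes, which surround fibrillin-1, were not called for FB1 in WT liver (0 of 15 by limma, with 5 at an unadjusted p under 0.05, median 0.21). In KO liver 10 rose and 1 fell (median 0.60). Ltbp3 and Ltbp2, latent TGF-β binding proteins of the fibrillin family, rose by 1.02 ± 0.12 (adjusted p = 7.81e-07) and 1.54 ± 0.21. Efemp2, the fibulin that tethers lysyl oxidase to tropoelastin, rose by 0.84 ± 0.10 (adjusted p = 2.01e-06). The FB1 effects on Ltbp3 differed by 0.79 ± 0.16 (adjusted p = 0.00484). Of the other small leucine-rich proteoglycans, 5 of 10 tested rose and 0 fell in KO liver (median 0.53), and 1 rose in WT liver. They included Podn (0.97 ± 0.18, adjusted p = 0.000195), Omd (1.99 ± 0.47, adjusted p = 0.00169, or 1.61 with its dim KO control array raised in the same way) and Chadl (0.56 ± 0.14, adjusted p = 0.00227). Podn also rose in WT liver (0.75 ± 0.18, adjusted p = 0.0209).

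Of 19 tested enzymes that build glycosaminoglycan chains such as those of decorin and biglycan, 4 rose and 4 fell with FB1 in KO liver, shares near those over all genes. In WT liver limma called 0, with 4 at an unadjusted p under 0.05. Chpf, a chondroitin polymerising factor, rose by 0.74 ± 0.10 (adjusted p = 7.18e-06) and its FB1 effects differed by 0.63 ± 0.14 (adjusted p = 0.00943). B3gat3, which completes the linker to the core protein, fell by 0.33 ± 0.08 (adjusted p = 0.00166), and Csgalnact1, which starts the chondroitin chain, fell by 0.49 ± 0.12 (adjusted p = 0.00356). Of 16 genes for fibronectin receptors and assembly, 5 rose and 2 fell in KO liver. In WT liver limma called 0, with 1 at an unadjusted p under 0.05. Plaur, the urokinase receptor, rose by 1.28 ± 0.21 (adjusted p = 5.98e-05) and Tgm2, the tissue transglutaminase, by 0.70 ± 0.14 (adjusted p = 0.000321). Sdc2, a heparan sulfate syndecan, fell by 0.61 ± 0.10 (adjusted p = 6.06e-05).

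**Figure D5:**
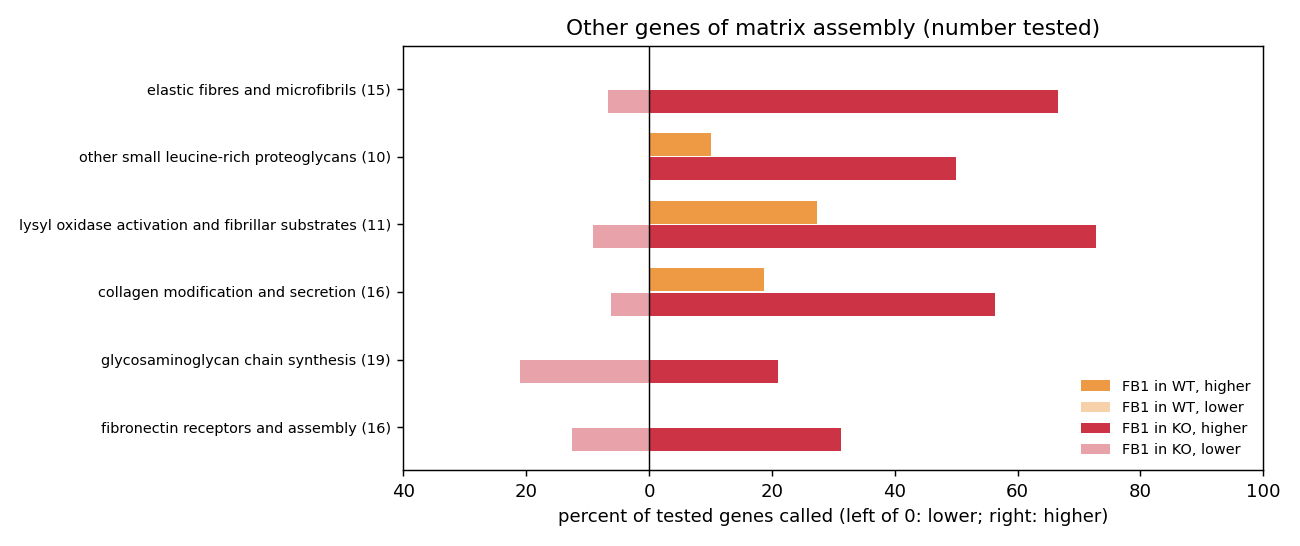
Share of the tested genes of each pathway list called for FB1 in WT and in KO liver, in percent, higher to the right of 0 and lower to the left, with the number tested in brackets. The substrate list has 8 of 11 higher in KO liver, and glycosaminoglycan synthesis has 4 higher and 4 lower of 19.

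Markers of several cell types moved with these genes, and their part in the results was not tested. The level of a list is the mean over its tested markers of the difference from the WT control mean. For activated myofibroblasts it ran from -0.17 to 0.28 in WT control, 0.30 to 0.99 in WT FB1, -0.01 to 0.51 in KO control and 1.01 to 1.65 in KO FB1. In KO liver FB1 raised 6 of its 8 tested markers, among them Col1a2 and Col1a1, which have the smallest p. Both also stand in the substrate list, as does Col3a1. The smooth muscle actin gene Acta2, a defining marker, was not called (0.06 ± 0.13, adjusted p = 0.73), and Cthrc1 was too dim to be tested.

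Portal fibroblast markers rose in KO liver in 6 of 9 (Cd34 by 1.22 ± 0.15, Eln by 1.23 ± 0.17), with list levels of 0.30 to 0.86 in KO FB1 and -0.35 to -0.06 in KO control. In the WT groups that list ran from -0.14 to 0.29 in controls and -0.10 to 0.28 with FB1. Eln and some other portal fibroblast markers also stand in the elastic fibre list, so these counts share genes. Of 12 stellate cell markers 5 rose and 1 fell, with Pdgfrb up by 0.95 ± 0.13. The stellate list levels were 0.21 to 0.43 in KO FB1 and -0.14 to 0.17 in KO control. In the WT groups they were -0.10 to 0.07 in controls and -0.02 to 0.32 with FB1, so the FB1 groups overlapped. The FB1 effects differed for 0 of the 12 stellate markers by limma, with 3 at an unadjusted p under 0.05. Mesothelial markers rose in 4 of 7 (Wt1 by 2.08 ± 0.35, Msln by 1.34 ± 0.38), with levels of 0.38 to 1.56 in KO FB1 and -1.39 to 0.91 in KO control. These 7 include Upk3b, Upk1b and Lrrn4, which were well above background on at most 22, 21 and 16 of 24 arrays. Over the other 4 markers the level was 0.39 to 1.497 in KO FB1 and -0.97 to 0.86 in KO control.

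Of the recruited macrophage markers, 8 of 8 rose with FB1 in KO liver (Trem2 by 2.87 ± 0.29, Ms4a7 by 2.12 ± 0.24). One of them, Gpnmb, was well above background on all KO arrays but on 0 WT control arrays and 1 WT FB1 array, and it is left out of the list level. Over the other 7 markers the level was -0.74 to 0.49 in WT control, 0.39 to 1.57 in WT FB1, 0.93 to 1.57 in KO control and 2.82 to 3.41 in KO FB1. WT FB1 replicate 1, the highest array of its group for Loxl1, Loxl2, Lum and Lox, was also the highest of its group in the lists of activated myofibroblasts (0.99) and recruited macrophages (1.57). Of all 24 arrays it also had the lowest share of spots well above background (58.7%) and the lowest 75th percentile (490 intensity units), whose part was not tested. Sinusoidal endothelium markers fell in 4 of 7 in KO liver (Stab2 by 0.94 ± 0.13, Clec4g by 0.74 ± 0.16). Of 8 hepatocyte markers 2 fell, a share near that over all genes: Cps1 by 0.83 ± 0.14 and Ass1 by 0.50 ± 0.12, and Alb was not called (-0.04 ± 0.08). Resident macrophage markers differed between the genotypes already without FB1, with 8 of 8 lower in KO liver, against 8.02% of all genes. With FB1 in KO liver 1 of 8 rose, C1qa by 0.75 ± 0.17, and 2 fell, among them Cd163 by 2.15 ± 0.30. These shares are near those over all genes. Median list levels were -3.01 (KO control) and -3.54 (KO FB1).

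The remaining lists were mixed. FB1 in KO liver raised 2 and lowered 1 of 6 smooth muscle markers (Smtn up by 0.62 ± 0.12, Des by 0.47 ± 0.12). Des is also a stellate marker here. The list levels overlapped, at -0.36 to -0.03 in KO control and -0.41 to 0.05 in KO FB1. They were -0.24 to 0.57 in WT control and -0.80 to -0.27 in WT FB1. Without Cnn1, well above background on at most 21 of 24 arrays, the KO levels were -0.18 to 0.10 and -0.09 to 0.29. The WT levels were then -0.15 to 0.20 and -0.14 to -0.02. In KO liver FB1 raised 1 of 7 cholangiocyte markers, Sox9 (1.89 ± 0.27), a share near that over all genes, while Krt7 was not called (0.56 ± 0.24). Of 4 platelet markers limma called 0 in KO liver, with 0 at an unadjusted p under 0.05 (Pf4 at -0.27 ± 0.16, Itga2b at 0.20 ± 0.14), and Pf4 rose in WT liver (0.75 ± 0.16, adjusted p = 0.00806).

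The genes most correlated with a member from mouse to mouse also differed between members. Each is among the highest r of a search over all tested genes with a value on every array. How high such an r gets by chance was not tested. Deviations from the group means were correlated over 24 arrays (23 for Fn1), as a description, since all values of an array share a mouse and a scaling. Loxl2 followed the collagen genes Col1a1 (r = 0.91) and Col3a1 (0.89) most closely, and among members Loxl1 (0.81) and Lum (0.74). Loxl1 was nearest to Lynx1 (0.84), Aebp1 (0.84) and the gelatinase gene Mmp2 (0.83), and Lox to Vgll3 (0.86) and Cavin3 (0.80). Lum followed Islr (0.84), Bicc1 (0.83) and the collagen chain gene Col6a2 (0.79), and Fbn1 followed the laminin chain gene Lama2 (0.88), Sparc (0.85) and P3h3 (0.85). Dcn was nearest to Tln2 (0.85) and Hmgb1 (0.83), and its deviations ran against those of the Bgn probe used (-0.61). Bgn was nearest, among genes with a symbol, to Npc2 (0.75) and Itga1 (0.72). The second tested Bgn probe followed the probe used at r = -0.06, so the Bgn values hold for the probe used alone. The nearest of Fn1, at the probe used, which probe 3 hardly followed (r = 0.07), were the acute phase genes Serpina3i (0.85) and Serpina3n (0.83). For Loxl4 they were the innate immune receptor gene Tlr2 (0.82), Synpo (0.78) and the spermine oxidase gene Smox (0.76). Loxl3, which was near background on some WT arrays, had Zfp184 (0.74), Mesp2 (0.72) and Ucp2 (0.71).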

How the data were processed

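Scanner files of 24 arrays, written by Agilent Feature Extraction 10.10.1.1 per the file headers, give the intensity of each of 59305 spots. Per the file headers this intensity was background-subtracted and not scaled between arrays. The authors also deposited log2 values for 33417 probes, with column medians between 7.858 and 7.863. The processing notes of the submitters name limma, while the sources used here do not give the filter and scaling behind that table.

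From the intensity, log2 values minus each array's 75th percentile were computed, with outlier spots (64 to 121 an array) set to missing and spots of a probe averaged. Probes were tested that rose well above background on all unmarked arrays in 1 or more groups and kept at least 4 values in each. Symbols came through RefSeq accessions (GRCm38.p6) where these matched. With limma 3.58.1 (R 4.3.3), 4 group means were fitted over all 24 arrays (lmFit, eBayes), and p was adjusted by Benjamini-Hochberg over 22088 genes (or all tested probes for a second probe) and called under 0.05. Members, lists and tests were chosen with earlier results of these data known. Named beside the members were, of each pathway list, the 3 called genes of smallest p for FB1 in KO and 1 each for FB1 in WT and for the difference. Of each marker list they were the 2 of smallest p, and for each member the 3 most correlated genes. Acta2, Alb, Gpnmb, Bmp1 and the WT values of Pf4, Col1a2 and Col3a1 were added after their values were seen, and unnamed transcripts were left out. One marker that the rule names is not reported here.

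In data simulated for FB1 in KO over 22033 genes, 56% of 50 genes changed by 0.5 were recovered, and 86%, 92% and 98% at 1, 1.5 and 2. All other genes were left unchanged there, and 173 were called, against 9097 in the real comparison. The Benjamini-Hochberg adjustment is stricter where fewer genes change, so these rates are not those of the real comparison. The number of arrays limits the precision. Alternatives were other scalings and background corrections, the authors' values, filters, outlier spots, probe averages, slide and replicate blocks, single slides, the groups alone, a stricter threshold and leaving out each array. Raising dim arrays of named list genes to the floor, and leaving dim markers out of a list level, were chosen after seeing the data. Plots used matplotlib 3.10.9 under Python 3.11.15.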

Additional observations from a re-analysis of the deposited data

Results flagged for a closer look

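In 5 of 40 combinations of a member and a group, the highest or lowest array lay far from the rest of its group, where chance gives about 1 in 20. Lox in WT control replicate 4 was at -3.99, with the next array at -5.08. In WT FB1 replicate 1, Loxl1 was at -1.67 (next -2.41) and Lum at 1.83 (next 1.21). Loxl4 in WT FB1 replicate 4 was low at -1.03 (next 0.29), and Loxl3 in KO control replicate 2 was low at -5.53 (next -4.73).

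For 4 members the FB1 effect differed between the genotypes by a test of the difference itself. It was larger in KO liver by 2.40 for Lox (0.94 after normexp correction and 1.33 in the authors' deposited values), 1.48 for Loxl1, 0.81 for Fbn1 and 0.78 for Lum.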

How the results depend on the processing

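The direction of all calls for FB1 in either genotype held under every alternative run, and single slides, with 2 arrays a group, lost many of them. With slide 1, 2 or 3 alone 0 members were called for FB1 in WT, where 7, 33 and 0 of all genes were called. Slide 2 alone called 0 members for FB1 in KO, 1 for KO against WT with FB1 and 0 for the difference of the FB1 effects. It called 305, 705 and 3 of all genes there. Slide 3 alone called 2 members and 1083 of all genes for the difference. Slide 1 alone called 5 members for KO against WT with FB1 (1616 of all genes) and 0 for the difference (6 of all genes). Fitting the groups of a comparison alone left 1 member for FB1 in WT (381 of all genes). At an adjusted p under 0.01, 1 member was called for FB1 in WT (279 of all genes) and 2 for the difference (624 of all genes). For KO against WT without FB1, 0 members were called with normexp, the authors' values, no filter, slide as a block, each slide alone and the stricter threshold. These settings called 423 to 3403 of all genes. Leaving out 1 array at a time gave 2 to 2 members for FB1 in WT, 6 to 7 for FB1 in KO, 0 to 2 and 7 to 9 for the genotype comparisons and 4 to 5 for the difference. In the same order it called 386 to 839, 7976 to 9794, 2828 to 3538, 6191 to 7854 and 1490 to 3038 of all genes.

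With the replicate number as a block, 2 members were called for FB1 in WT, 6 for FB1 in KO, 2 and 8 between genotypes without and with FB1, and 4 for the difference. In the same order 552, 8912, 3190, 6994 and 1898 of all genes were called. The replicate numbers gave no pairing of mice: of 24 pairs of arrays 3 correlated over 0.1, with r from -0.20 to 0.24. The call of Bgn between genotypes with FB1 was lost with this block (adjusted p = 0.0511).

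Directions turned for values that were not called, except Fn1 with FB1, and the cause was not tested. Quantile normalisation turned Lox for FB1 in WT (-0.0215) and Fn1 for FB1 in KO (0.0886) and between untreated genotypes (0.0152). The authors' values turned Fn1 for FB1 in KO (0.13), KO against WT with FB1 (0.12) and the difference (0.12). Normexp turned the difference for Loxl3 (-0.0191), and keeping outlier spots turned Fn1 for FB1 in WT (-0.085). Averaging probes turned Fn1 for FB1 in WT (-0.0275) and, between untreated genotypes, Fbn1 (-0.0198) and Loxl4 (0.029). Slide 1 alone turned FB1 in WT for Bgn (-0.11) and Fbn1 (-0.11), FB1 in KO for Loxl4 (0.63), untreated genotypes for Loxl4 (0.39), Loxl2 (-0.15) and Fbn1 (-0.27), and the difference for Loxl3 (-0.33). Slide 2 alone turned FB1 in WT for Bgn (-0.0075), Lox (-0.0367) and Loxl3 (-0.58), FB1 in KO for Fn1 (0.0104), untreated genotypes for Fn1 (0.18), Loxl4 (0.0483) and Lox (-0.54), and the difference for Loxl2 (-0.18). Slide 3 alone turned FB1 in WT for Fn1 (-0.08996) and Loxl4 (-0.54), FB1 in KO (0.46), KO against WT with FB1 (0.11) and the difference (1.002) for Loxl4, and the difference for Bgn (-0.22). Leaving out 1 array gave, for FB1 in WT, -0.0185 to 0.12 for Bgn, -0.16 to 0.28 for Lox and -0.025 to 0.26 for Loxl3, and -0.30 to 0.16 for Loxl4 with FB1 in KO. Between untreated genotypes it gave -0.0728 to 0.00796 for Fn1, -0.39 to 0.12 for Loxl4, -0.0328 to 0.11 for Fbn1 and -0.0522 to 0.31 for Lox. Over all genes, the count called for the difference was 2055, against 1258 without a filter, and for FB1 in WT 638, against 381 with the groups alone. The authors' values lack Loxl3, and a stricter filter on dim probes drops Lox and Loxl3, so these have no value there. Signal near background limits both.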
